A study of Homo sapiens with 10 samples.

Results

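The microRNA miR-21 was followed through both of its mature arms, hsa-miR-21-5p and hsa-miR-21-3p, after depletion of the IGF2BP paralogs in ES-2 cells. The members are the 2 table rows that carry these names, of 2576 mature miRNAs in all. ES-2 is an established human cell line derived from an ovarian cancer. Small RNA libraries came from cells transfected with an siRNA pool against IGF2BP1 (siIGF2BP1, 2 libraries), IGF2BP2 (siIGF2BP2, 3 libraries) or IGF2BP3 (siIGF2BP3, 3 libraries), or with control siRNA (siC, 2 libraries). All libraries share the parental line, and the sources used here give no time after transfection. IGF2BP mRNAs have 0 rows in this miRNA table, which leaves the extent of each knockdown unmeasured. The question addressed is whether miR-21 levels, and the balance between its arms, differed after each knockdown.

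A miRNA hairpin is cut by Drosha and Dicer into a short duplex, of which one strand, the guide, is usually kept by an Argonaute protein while the other, the passenger, is mostly degraded. miR-21-5p is the guide strand of its hairpin and is widely described as an oncogenic miRNA, since it represses mRNAs of tumour suppressors such as PDCD4 and is abundant in many solid tumours. miR-21-3p is the passenger strand, and both arms derive from the same primary transcript. The IGF2BP proteins bind mRNAs and have been described as shielding some of them from miRNA-directed repression.

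The sequences show what miR-21-5p has in common with the only other RefSeq miRNA of the same seed. In the RefSeq table (GRCh38.p14) 1 of the 2 members, miR-21-5p, was matched, and among 2370 mature names 2 shared its seed (bases 2 to 8, in capitals), which sets the choice of target mRNAs. The pair is given 5′ to 3′.
miR-21-5p: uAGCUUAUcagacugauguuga
miR-590-5p: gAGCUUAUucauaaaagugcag
The MIR21 hairpin of 72 bases is given with miR-21-5p in capitals.
MIR21 hairpin: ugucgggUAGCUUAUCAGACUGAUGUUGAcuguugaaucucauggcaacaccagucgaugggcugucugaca
It lies at chr17:59841266-59841337 on the plus strand (GRCh38.p14), and miR-21-5p covers hairpin bases 8 to 29. In GENCODE release 29 (GRCh38) the hairpin falls inside an exon of a retained-intron transcript of VMP1 on the same strand, the only VMP1 transcript it overlaps there. VMP1 encodes a membrane protein involved in autophagy. In the structure of lowest predicted free energy (RNAfold, -34.6 kcal per mol), 19 of the 22 bases of miR-21-5p were paired. Over their whole length, the shared seed included, the family members carry the same base at 8 of 22 positions. The other family member was nearly unread. It had between 1 and 9 reads in each library (siIGF2BP2 replicate 1 and siIGF2BP3 replicate 3), so that miR-21-5p made up at least 99.98% of the reads with this seed in every library. miR-590-5p did not pass the test in any comparison (lowest adjusted p 0.770, limma).

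Libraries held 462724 to 1269743 reads. Values are the authors' normalised read counts, in which 1 read is worth 0.803 to 1.996. The labels give the siC and siIGF2BP1 samples another source name than the siIGF2BP2 and siIGF2BP3 samples, and a set of 15 imprinted 14q32 miRNAs, which are expressed in few adult cell types, followed that split. They took 0.114% to 0.208% of reads in siIGF2BP1, 0.000404% to 0.00146% in siIGF2BP2, 0.000613% to 0.00130% in siIGF2BP3 and 0.147% to 0.353% in siC. Some markers of other cell types followed the same split. miR-143-3p, a smooth muscle and stromal miRNA, averaged 1064 in siIGF2BP1, 10.6 in siIGF2BP2, 5.29 in siIGF2BP3 and 1222 in siC. The endocrine miR-375 averaged 21.4, 0, 0.665 and 212 in the same groups, the erythroid miR-451a 110.3, 0.636, 1.58 and 364, and the neural miR-124-3p 32.7, 0, 0 and 30.4. Spread was wide for some of these: in siC the SD was 419 for miR-451a and 174 for miR-375 (n = 2). In siIGF2BP1 it was 146 for miR-451a (n = 2). Within one side of the split, miR-375 was lower in siIGF2BP1 than in siC (log2 fold change -3.07), which did not pass limma's test (adjusted p = 0.0534). Other markers of such cell types did not follow the split. Again in the same groups, the blood cell miR-142-5p averaged 397, 489, 793 and 424, and the neural miR-9-5p 299, 103, 174 and 135. The stromal miR-199a-3p averaged 2906, 2921, 3296 and 2554. Of the marker lists, siIGF2BP3 against siC had 2 of 6 tested blood cell miRNAs and 1 of 5 stromal miRNAs lower. So were 2 of 4 neural, endocrine, muscle and liver and 13 of 14 14q32 miRNAs, with 0 higher in each list as deposited. Over all 889 tested miRNAs 8.66% were lower and 1.91% higher. In siIGF2BP2 against siC these lists had 2, 1, 2 and 13 lower, where 7.76% of all 889 were lower and 1.24% higher. There 1 stromal miRNA was higher, miR-199b-5p (0.93, limma adjusted p = 0.0212). The part of these differences in the miR-21 values against siC was not tested. This source split and the group cannot be told apart in siIGF2BP2 or siIGF2BP3 against siC, while siIGF2BP1 vs siC and siIGF2BP2 vs siIGF2BP3 stay within one side of it. Epithelial miRNAs were almost absent: miR-429 had 0 reads in all 10 libraries, and miR-200a-3p, miR-200b-3p, miR-200c-3p and miR-141-3p had at most 3 in any library. The labels do not state whether the libraries of one group stem from separate cultures; p-values therefore rest on the spread among libraries, which may be purely technical.

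miR-21-5p was one of the most abundant miRNAs in ES-2 cells. Its mean ranked 2 of 2576 in siIGF2BP1, in siIGF2BP2 and in siC, behind let-7a-5p, a tumour-suppressive miRNA, and 4 in siIGF2BP3. let-7a-5p has several genomic copies whose rows were summed; with each copy ranked alone, miR-21-5p was 1 in siIGF2BP1, siIGF2BP2 and siC and 2 in siIGF2BP3. It took 10.2% and 10.8% of all miRNA reads in siIGF2BP1, 8.80%, 10.5% and 10.5% in siIGF2BP2, 6.51%, 5.76% and 6.75% in siIGF2BP3, and 9.22% and 8.79% in siC. With 30131 to 130023 reads per library, the exact Clopper-Pearson 95% interval of each share was narrow, such as 6.44% to 6.58% in siIGF2BP3 replicate 1. The intervals cover counting error only.

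The IGF2BP3 knockdown had the lowest miR-21-5p. Levels were 60131, 55536 and 61734 normalised reads in the 3 siIGF2BP3 libraries. They were 84161 and 85862 in the 2 siC libraries. All siIGF2BP3 libraries lay below both siC libraries, with no overlap. The means were 59134 ± 3217 in siIGF2BP3 (SD, n = 3) and 85012 ± 1202 in siC (SD, n = 2), a log2 fold change of -0.53 ± 0.09 (SE), or 1.44-fold lower in siIGF2BP3. The fall passed limma's test at an adjusted p of 0.00104. In this comparison 94 of 889 miRNAs (10.6%) were called at an adjusted p of at most 0.05, 77 of them (8.66%) lower and 17 (1.91%) higher, and miR-21-5p was number 39 by p-value. The authors' deposited table gives a log2 fold change of -0.52 with a false discovery rate of 0.000178. Rescaling by upper quartile turned the value to 0.072 (limma adjusted p = 0.78), with 137 miRNAs called higher and 66 lower. That scaling put the median of the miRNAs with a mean of at least 10 at 0.67, against 0.08 as deposited. Relative to that median, miR-21-5p stood at -0.60 after upper-quartile rescaling and -0.61 as deposited. Rescaling shifts all miRNAs of a library nearly alike, so this distance hardly can change and does not bear on which scaling is right.

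**Figure D1:**
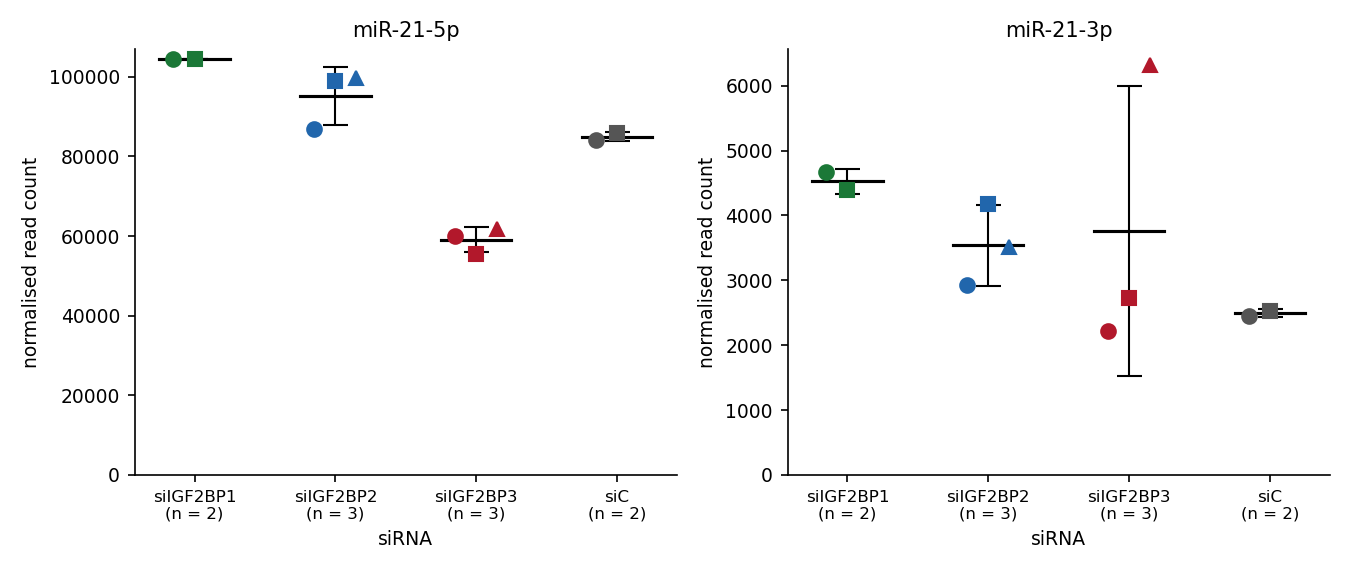
Normalised read counts (y axes, from 0) of miR-21-5p (left) and miR-21-3p (right) by siRNA group (x axes). Points are libraries, with circle, square and triangle for the 1st, 2nd and 3rd library of a group, and bars are the mean and SD. For miR-21-5p all 3 siIGF2BP3 libraries (55536 to 61734) lie below both siC libraries (84161 and 85862), and for miR-21-3p siIGF2BP3 replicate 3 stands at 6323, above every other library.

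A difference of the same kind was seen between the knockdowns of IGF2BP2 and IGF2BP3, which share a source name. The siIGF2BP2 libraries had 86807, 98995 and 99613 normalised reads of miR-21-5p, against 60131, 55536 and 61734 in siIGF2BP3, and the groups did not overlap. The means were 95138 ± 7222 in siIGF2BP2 and 59134 ± 3217 in siIGF2BP3 (SD, n = 3 each), 1.61-fold higher in siIGF2BP2 (log2 fold change 0.68 ± 0.08, limma adjusted p = 0.000219). Here 28 of 889 miRNAs (3.15%) were called, 15 of them (1.69%) higher and 13 (1.46%) lower in siIGF2BP2, and miR-21-5p was number 4 by p-value. Upper-quartile rescaling gave 0.57 for miR-21-5p, with 5 miRNAs called higher and 12 lower. As shares of reads, the means were 9.93% ± 0.978 in siIGF2BP2 and 6.34% ± 0.518 in siIGF2BP3 (SD, n = 3 each), with an exact permutation p of 0.1 (two-sided), the smallest that 3 against 3 libraries allow.

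Depletion of the other paralogs gave higher values of miR-21-5p that did not pass the test. In siIGF2BP1 its levels were 104454 and 104483 normalised reads, against 84161 and 85862 in siC, with both siIGF2BP1 libraries above both siC libraries. The log2 fold change was 0.30 with a 95% interval of 0.09 to 0.50 and a limma adjusted p of 0.123. It was smaller with other scalings, at 0.093 with TMM, 0.082 with upper quartile and 0.064 with median of ratios, and at 0.040 with edgeR and 0.064 with DESeq2. Here 22 of 889 miRNAs (2.47%) were called, 19 (2.14%) higher and 3 (0.337%) lower, a split that was 12 and 13 with TMM scaling, 13 and 15 with median-of-ratios scaling and 7 and 3 with upper-quartile scaling. The SD of the siIGF2BP1 libraries, 20.3, is 0.0194% of their mean and thus smaller than the counting error of either library (0.277% and 0.290%). In siIGF2BP2, with 86807, 98995 and 99613, all 3 libraries also lay above the siC values of 84161 and 85862, the lowest by a small margin. The log2 fold change against siC was 0.16 with a 95% interval of -0.03 to 0.35 (limma adjusted p = 0.377), where 80 of 889 miRNAs (9.0%) were called, 11 (1.24%) higher and 69 (7.76%) lower. As a share of reads siIGF2BP2 overlapped siC, since replicate 1 held 8.80% and siC C3 8.79%, siC C2 being at 9.22%. The 3 comparisons with siC use the same 2 control libraries. With TMM scaling the siIGF2BP2 value was 0.037, and under upper-quartile rescaling it was 0.64 (limma adjusted p = 0.00831), with the median of the miRNAs at 0.52 and with 94 called higher and 64 lower.

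On the deposited scale the mean level of miR-21-5p was ordered siIGF2BP1 (104468), siIGF2BP2 (95138), siC (85012) and siIGF2BP3 (59134). The order of the first 2 turns with median-of-ratios scaling, edgeR, DESeq2 and upper-quartile scaling, the last of which also puts siC lowest. The step between siIGF2BP1 and siIGF2BP2 was not tested, and that between siIGF2BP2 and siC did not pass. Within every group the SD of miR-21-5p on the log2(value + 1) scale was below the median of the 149 miRNAs with a mean of at least 100. It was 0.08 in siIGF2BP3 against a median of 0.15. In siIGF2BP2 it was 0.11 against 0.14, number 93 of 149 from the highest SD.

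miR-21-3p, the passenger arm, was present at a much lower level and followed another order. Its mean ranked 31 in siIGF2BP1, 35 in siIGF2BP2, 35 in siIGF2BP3 and 40 in siC, and it took 0.241% to 0.691% of reads. The siIGF2BP1 libraries held 4664 and 4389.9 normalised reads. The siIGF2BP2 libraries held 2923, 4176 and 3521. In siIGF2BP3 the values were 2225, 2732 and 6323. In siC they were 2456 and 2535, below all libraries of siIGF2BP1 and siIGF2BP2, while the siIGF2BP3 libraries lay on both sides of siC.

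None of the differences in miR-21-3p passed limma's test. Against siC the log2 fold change was 0.86 in siIGF2BP1 (95% interval 0.09 to 1.62, adjusted p = 0.269), with means of 4527 ± 194 in siIGF2BP1 and 2496 ± 56.0 in siC (SD, n = 2 each). It was 0.49 in siIGF2BP2 (-0.21 to 1.19, adjusted p = 0.507) and 0.44 in siIGF2BP3 (-0.26 to 1.13, adjusted p = 0.533), and between siIGF2BP2 and siIGF2BP3 it was 0.054 (-0.57 to 0.68, adjusted p = 1). The libraries of all groups share 1 estimate of the spread, and the SD of log2(value + 1) of miR-21-3p was 0.80 in siIGF2BP3, against a median of 0.15 over 149 miRNAs in that group. Without that library the siIGF2BP1 difference passed at the same size (0.86, limma adjusted p = 0.010004), the siIGF2BP3 value was -0.017 (adjusted p = 1), and siIGF2BP2 over siIGF2BP3 was 0.51 (adjusted p = 0.0865). Under upper-quartile rescaling the value against siC was 0.97 in siIGF2BP2 (limma adjusted p = 0.0464) and 1.03 in siIGF2BP3 (adjusted p = 0.0274). For miR-21-3p the authors' deposited table gives log2 fold changes of 0.86, 0.50 and 0.59 in siIGF2BP1, siIGF2BP2 and siIGF2BP3, with false discovery rates of 0.71, 1 and 1.

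**Figure D2:**
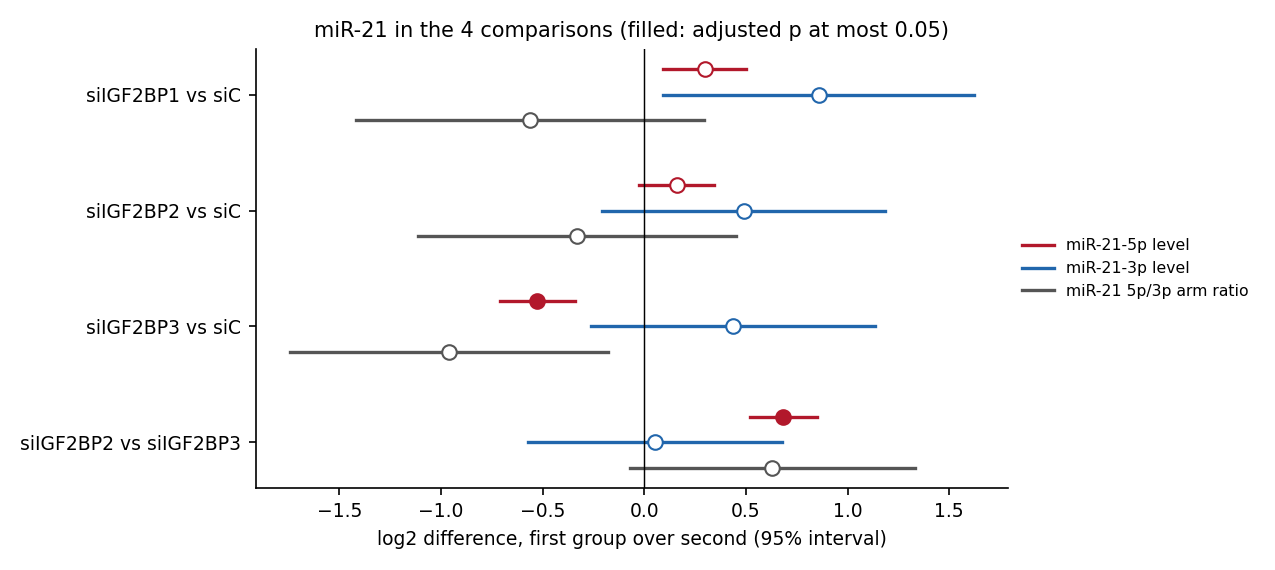
Log2 difference (x axis) of the miR-21-5p level, the miR-21-3p level and the 5p over 3p arm ratio in 4 comparisons (y axis), first group over second. Points are limma estimates with 95% intervals, filled where the adjusted p is at most 0.05; the filled points are miR-21-5p in siIGF2BP3 vs siC (-0.53, turned to 0.072 by upper-quartile rescaling) and in siIGF2BP2 vs siIGF2BP3 (0.68).

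In siIGF2BP3 replicate 3 the passenger arm was raised while the guide was not. miR-21-3p was 2.55-fold above the mean of replicates 1 and 2 there, number 3 from the top among 149 miRNAs with a mean of at least 100. miR-21-5p in the same library was 1.07-fold above that mean, and the median log2 difference of the 149 miRNAs was -0.02. This library had 769124 reads, between the depths of replicates 1 (462724) and 2 (815312).

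The ratio of the arms does not depend on how libraries were scaled, since both arms come from the same library. miR-21-3p made up 4.27% and 4.03% of the reads of the hairpin in siIGF2BP1, 3.26%, 4.05% and 3.41% in siIGF2BP2, 3.57%, 4.69% and 9.29% in siIGF2BP3, and 2.84% and 2.87% in siC. Every knockdown library lay above both siC libraries, and siIGF2BP3 replicate 3 was the highest. Expressed as 5p reads per 3p read, the values were 22.4 and 23.8 in siIGF2BP1, 29.7, 23.7 and 28.3 in siIGF2BP2, 27.0, 20.3 and 9.76 in siIGF2BP3, and 34.3 and 33.9 in siC. The exact permutation p of the 3p share against siC was 0.333 for siIGF2BP1, 0.2 for siIGF2BP2 and 0.2 for siIGF2BP3 (two-sided), each the smallest that its design allows. Between siIGF2BP2 and siIGF2BP3 the ranges overlapped (exact permutation p = 0.2, where 0.1 is the smallest possible).

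**Figure D3:**
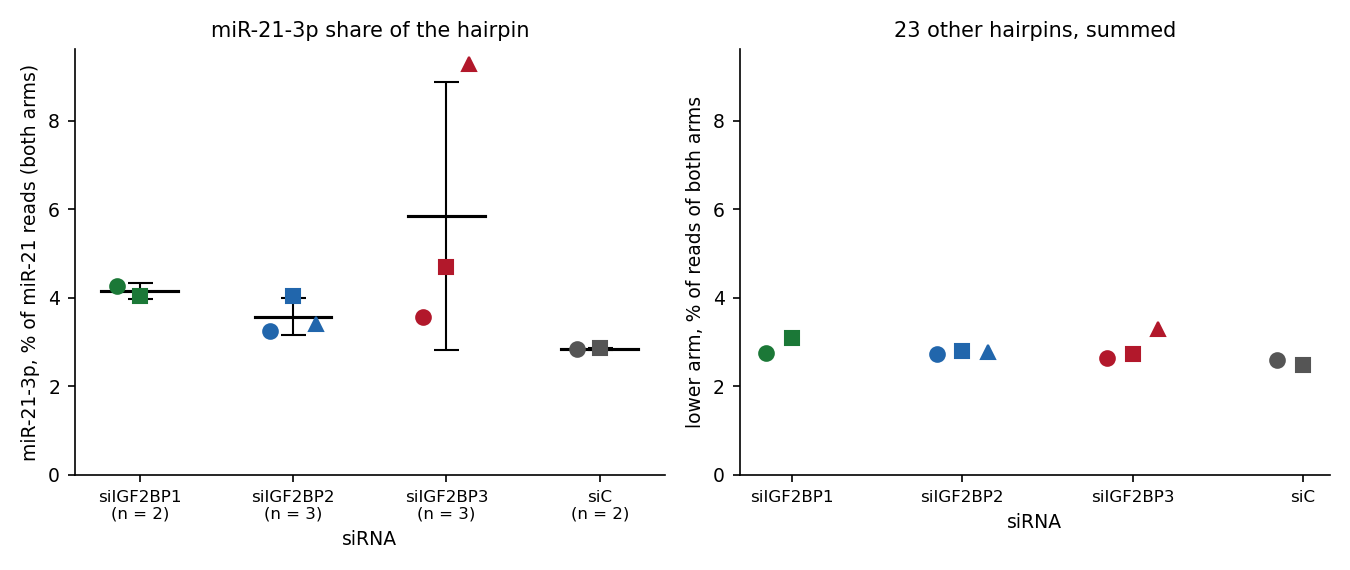
Left, miR-21-3p as a percentage of the reads of both miR-21 arms (y axis, from 0) by siRNA group (x axis), with points for libraries and bars for the mean and SD. Right, on the same scale, the lower arm of 23 other hairpins with a mean of at least 100 for each arm, summed per library. For miR-21 the 8 knockdown libraries (3.26% to 9.29%) lie above both siC libraries (2.84% and 2.87%).

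Arm ratios were fitted over all 225 hairpins with both arms measured. For miR-21 the log2 change of the 5p over 3p ratio was -0.96 in siIGF2BP3 against siC (95% interval -1.74 to -0.18). It missed the threshold in limma (adjusted p = 0.207), where 12 hairpins (5.33%) were called, 10 with a higher ratio and 2 with a lower one. edgeR's quasi-likelihood test of the same ratio on whole reads, with a term for each library, gave -0.96 and passed (adjusted p = 0.00652). It called 3 hairpins (1.33%), all with a lower ratio. Without siIGF2BP3 replicate 3 the limma value was -0.54 (adjusted p = 0.165). The ratio change was -0.56 in siIGF2BP1 (-1.42 to 0.30, limma adjusted p = 0.819). There limma called 0 of 225 hairpins (0.0%) with 20 at an unadjusted p under 0.05, and edgeR called 2 (0.889%), all lower. In siIGF2BP2 against siC the ratio change was -0.33 (-1.11 to 0.45, limma adjusted p = 0.766). Here limma called 13 hairpins (5.78%), 10 higher and 3 lower, and edgeR called 4 (1.78%), all lower. For siIGF2BP2 over siIGF2BP3 the ratio change was 0.63 (-0.07 to 1.33, limma adjusted p = 0.55), with 1 hairpin (0.444%) called, lower.

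Set beside other hairpins, miR-21 had the most abundant lower arm among those whose 5p arm is the main one, with means over all libraries of 84177 for 5p and 3595 for 3p. It was followed by miR-30a (51587 and 3038) and miR-100 (50136 and 1612). In siIGF2BP3 against siC the miR-21 ratio lay below that of 22 of the other 23 hairpins with a mean of at least 100 in each arm, and above that of 1, miR-100, at -1.15. These hairpins were taken whichever arm is the main one. Where the main arm is 3p, a lower 5p over 3p ratio means a smaller share of the lower arm, unlike in miR-21. The median of these hairpins, miR-21 included, was -0.13, and miR-30a, of similar abundance, stood at -0.10 (limma adjusted p = 0.824). Over the 23 other hairpins together the lower arm took 2.76% and 3.10% of reads in siIGF2BP1, 2.74%, 2.79% and 2.77% in siIGF2BP2, 2.63%, 2.74% and 3.29% in siIGF2BP3, and 2.59% and 2.49% in siC. The library with the highest miR-21-3p share thus also had the highest summed lower-arm share, and the siC libraries had the lowest of both. The part of that general difference in the miR-21 ratio was not tested.

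Of 19 other miRNAs described as oncogenic, 3 were called in siIGF2BP3 against siC, all higher, and 0 lower, where 1.91% of all 889 miRNAs were called higher and 8.66% lower. With upper-quartile rescaling 17 of the 19 were called higher and 0 lower, where 137 of 889 miRNAs were called higher and 66 lower, and the median was 0.92 for the list and 0.43 for all. The 3 were miR-222-3p, a repressor of the p27 mRNA (log2 fold change 0.53, limma adjusted p = 0.000833), miR-31-5p (0.69, adjusted p = 0.000451) and miR-155-5p, an immune-response miRNA (0.41, adjusted p = 0.0379). The median log2 fold change of the 19 was 0.32, and that of all 889 tested miRNAs was 0.00. Between siIGF2BP2 and siIGF2BP3, 6 of the 19 were lower in siIGF2BP2 and 0 higher, where 1.46% of all 889 were lower and 1.69% higher, with a median of -0.36 against 0.00 for all, while miR-21-5p was higher. The 6 were miR-25-3p, miR-182-5p and miR-183-5p beside the 3 above. After upper-quartile rescaling 6 were also lower, where 12 of all 889 were called lower and 5 higher. In siIGF2BP1 against siC, 1 of the 19 was higher, the hypoxia-induced miR-210-3p (2.60, limma adjusted p = 0.0003003), a low miRNA, named after its value was seen. Lower were 2, miR-182-5p (-0.56) and miR-183-5p (-0.67), where 2.14% of all 889 were called higher and 0.337% lower. In siIGF2BP2 against siC, miR-183-5p alone was called, at a log2 fold change of -0.41 (limma adjusted p = 0.0378). Of all 889 miRNAs 7.76% were called lower there and 1.24% higher. Upper-quartile rescaling turned miR-183-5p to 0.074 and called 4 others of the list higher, where 94 of all 889 were called higher and 64 lower. Among 21 tumour-suppressive miRNAs, 0 were called higher and 1 lower in siIGF2BP3 against siC, and 12 higher and 1 lower after upper-quartile rescaling. The one lower as deposited was miR-34a-5p, a low miRNA listed at 0 in all 3 siIGF2BP3 libraries and averaging 7.13 ± 3.09 in siC (SD, n = 2). In siIGF2BP2 against siC miR-30a-5p was called higher (0.29, limma adjusted p = 0.0433) and miR-98-5p lower (-0.35, adjusted p = 0.0382). Between siIGF2BP2 and siIGF2BP3 miR-30a-5p was higher in siIGF2BP2 (0.50, limma adjusted p = 0.00213) and 0 were lower. In siIGF2BP1 against siC 0 were called. After upper-quartile rescaling the list had 8 higher and 0 lower in siIGF2BP2 against siC, and 0 called between siIGF2BP2 and siIGF2BP3.

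**Figure D4:**
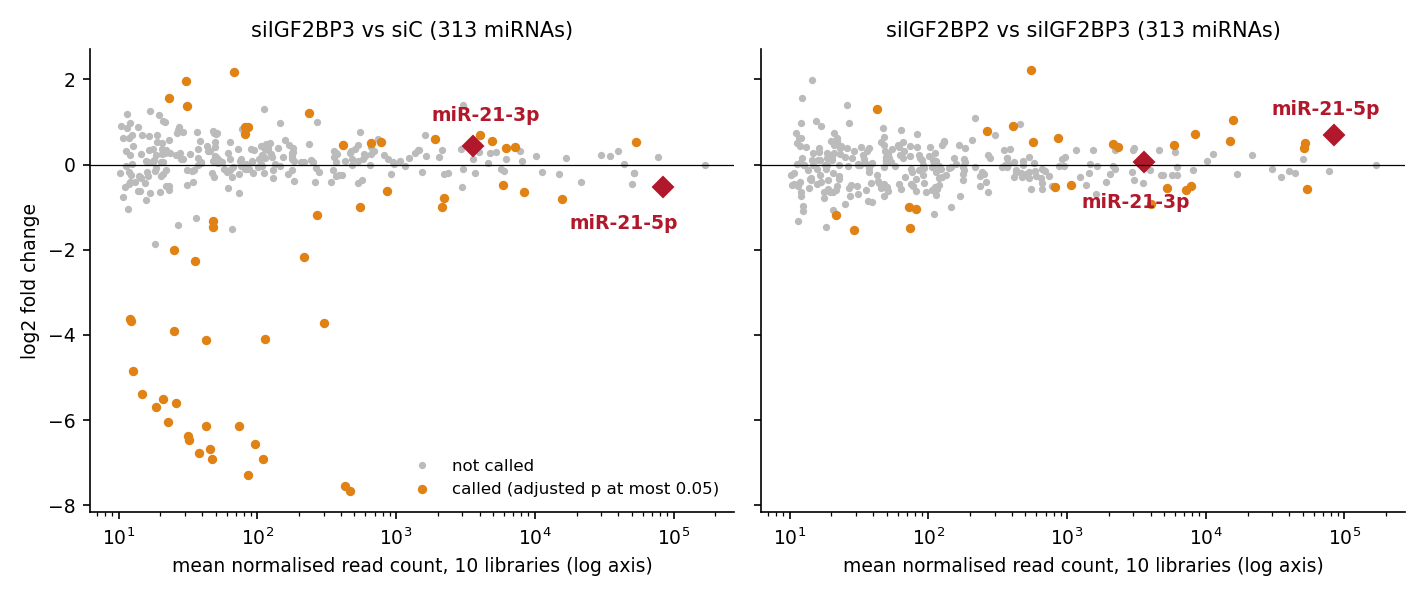
Log2 fold change (y axis) against the mean normalised read count over 10 libraries (x axis, log scale) for 313 miRNAs with a mean of at least 10, in siIGF2BP3 vs siC (left) and siIGF2BP2 vs siIGF2BP3 (right). Orange points were called by limma (adjusted p at most 0.05) and diamonds mark the miR-21 arms: miR-21-5p lies at -0.53 (0.072 after upper-quartile rescaling) and 0.68, and miR-21-3p at 0.44 and 0.054.

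The neighbours of the arms in abundance moved differently. Next to miR-21-5p in siC stood let-7a-5p above it and miR-92a-3p, of the miR-17-92 cluster, and miR-100-5p below it. In siIGF2BP3 against siC their log2 fold changes were -0.01, 0.17 and -0.45, and none passed limma's test (adjusted p = 0.959, 0.424 and 0.323). Around miR-21-3p stood miR-584-5p and miR-199a-3p above and miR-27b-3p and let-7d-5p below. Of these, miR-584-5p (-0.79, limma adjusted p = 0.00152) and miR-27b-3p (-1.003, adjusted p = 0.000155) fell in siIGF2BP3, and neither passed after upper-quartile rescaling (-0.19 and -0.41).

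The 5 miRNAs whose profile over the 10 libraries was most like that of each arm were taken, and no miRNA was in both sets. Likeness was taken as the root mean square difference of log2(value + 1), each miRNA centred on its own mean, over 148 other miRNAs with a mean of at least 100. For miR-21-5p the closest were miR-345-5p (0.15), miR-181b-5p (0.16), miR-125a-5p (0.18), miR-10a-5p (0.20) and miR-425-5p (0.21), against a root mean square of 0.33 for miR-21-5p about its own mean. Since they were chosen on these libraries, their differences between groups are a description. Between siIGF2BP2 and siIGF2BP3 the log2 fold changes were 0.53 for miR-345-5p, 0.73 for miR-181b-5p, 0.41 for miR-125a-5p, 0.38 for miR-10a-5p and 0.37 for miR-425-5p, against 0.68 for miR-21-5p. For miR-21-3p the closest were miR-30e-5p (0.28), miR-671-5p (0.33), miR-589-5p (0.35), miR-17-3p (0.35) and miR-1307-5p (0.37), and its own root mean square was 0.46. These were chosen on the same libraries, siIGF2BP3 replicate 3 included. miR-21-3p was number 105 of 148 in likeness to miR-21-5p, with a difference of 0.49.

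**Figure D5:**
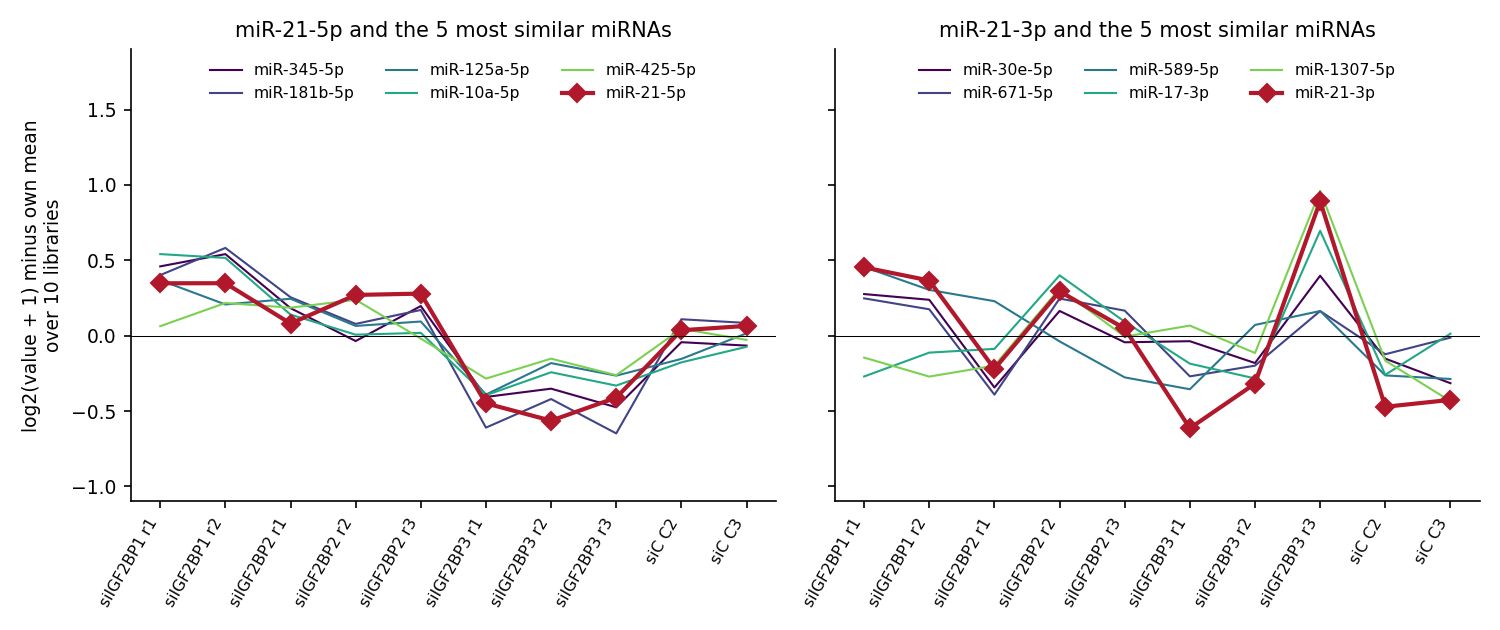
Log2(value + 1) minus each miRNA's own mean over 10 libraries (y axes) in each library (x axes, r for replicate) for miR-21-5p (left) and miR-21-3p (right), in red with diamonds, and the 5 miRNAs most like each. As deposited, miR-21-5p, left, is lowest in the 3 siIGF2BP3 libraries (0.072 above siC after upper-quartile rescaling), and miR-21-3p, right, is highest in siIGF2BP3 replicate 3.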

How the data were processed

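Small RNA was sequenced from 10 ES-2 libraries made with a TruSeq small RNA kit and size selection, per the labels' protocols. Tools listed in the submitters' processing notes are edgeR 3.12, featureCounts 1.4.6, Bowtie2 2.2.4 and cutadapt 1.6, with build hg19; how they were set, and how libraries were scaled, is not given in the sources used here. Each of the deposited library columns holds a normalised signal per mature miRNA (called normalised read counts). Dividing a column by what 1 read is worth gave whole numbers for 100% of values (tolerance 0.01 reads), and these recovered reads entered the count tests. The authors' log2 fold changes, p-values and false discovery rates are quoted only where named as deposited. Rows of genomic copies (218 of 2794) were summed; 0 columns of other samples were left unused. Which control sample each siC column belongs to is not clear from its name, so these are called siC C2 and siC C3.

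Levels were fitted with limma 3.58.1 (R 4.3.3) on log2(value + 1) with an intensity trend and 1 model for all groups, over the 889 miRNAs that reached a value of 1 in 2 or more libraries (Benjamini-Hochberg adjustment at 0.05). Such fold changes understate the change of low miRNAs. Arm ratios were fitted likewise over 225 hairpins, with the trend on the lower arm. Intervals of fold changes are 95% limma intervals. For shares, exact permutation tests (scipy 1.17.1, two-sided) were used. The steps were tested on simulated data. Alternatives were a pseudocount of 5, no filter, scaling by library total, TMM, upper quartile or median of ratios, edgeR 4.0.16 and DESeq2 1.42.0 on recovered reads, the 2 groups alone, a replicate block and the omission of each library; for shares, that omission was added after seeing the data, as was upper-quartile scaling of lists and named miRNAs. On the recovered reads edgeR called 42, 52, 64 and 40 of 335 miRNAs in siIGF2BP1, siIGF2BP2 and siIGF2BP3 against siC and in siIGF2BP2 against siIGF2BP3. Besides both arms, miRNAs were named by a rule: the seed partner, neighbours by siC level, the 5 closest profiles, the most abundant 5p hairpins and called or abundant list members. Members, lists and tests were chosen with earlier results of these data known. RNAfold 2.7.2 predicted the hairpin structure.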

Additional observations from a re-analysis of the deposited data

How the results depend on the processing

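The fall of miR-21-5p in siIGF2BP3 against siC kept its direction and call in 8 of 9 changed settings and whichever library was left out (log2 fold change -0.56 to -0.48, limma adjusted p = 0.00093 to 0.0173), the exception being upper-quartile scaling (0.072, limma adjusted p = 0.78). The higher level in siIGF2BP2 than in siIGF2BP3 kept its call whichever library was left out (0.64 to 0.75). It lost it under the replicate block (0.68, limma adjusted p = 0.325), where the number of called miRNAs was 1. Same-numbered libraries of these groups deviated in opposite ways (Pearson r across 149 miRNAs of -0.20, -0.38 and -0.14), and no library correlated best with its own number. The highest r joined siIGF2BP2 replicates 1, 2 and 3 to siIGF2BP3 replicates 2, 3 and 1, at 0.40, 0.38 and 0.37. The numbers are not taken as pairs, and a pairing under other numbers was not tested. Upper-quartile scaling brought calls in siIGF2BP2 against siC for miR-21-5p (0.64) and miR-21-3p (0.97) and in siIGF2BP3 against siC for miR-21-3p (1.03). The arm ratio in siIGF2BP3 against siC passed with edgeR alone (-0.96).

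The sign of miR-21-3p between siIGF2BP2 and siIGF2BP3, close to 0, turned with upper-quartile scaling (-0.062), edgeR (-0.035) and DESeq2 (-0.051), and leaving out single libraries gave -0.25 to 0.51. Leaving out single libraries gave -0.017 to 0.74 in siIGF2BP3 against siC and 0.81 to 0.90 in siIGF2BP1 against siC. As a difference in share of reads, leaving out single libraries gave -0.00231 to 0.223 percentage points in siIGF2BP3 against siC and -0.117 to 0.108 in siIGF2BP2 against siIGF2BP3. The cause of these changes was not tested. No paired analysis was possible for comparisons with siC because the numbers on its columns could not be tied to its replicate titles.

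The number of called miRNAs, 22 in siIGF2BP1 against siC, 80 in siIGF2BP2 against siC, 94 in siIGF2BP3 against siC and 28 in siIGF2BP2 against siIGF2BP3, was 10, 158, 203 and 17 with upper-quartile scaling. It was 42 with edgeR, 35 with DESeq2 and 0 in the 2 groups alone (limma, 133 at an unadjusted p under 0.05) for siIGF2BP1 vs siC, and 52 with edgeR for siIGF2BP2 vs siC. Without single libraries it was 2 to 29, 53 to 91, 70 to 107 and 15 to 22. For siIGF2BP1 against siC it was 2 without siIGF2BP1 replicate 2, 9 without siIGF2BP1 replicate 1 and 3 without siC C2, and a lone library is then assumed to vary like the other groups. For siIGF2BP2 against siC it was 53 without siIGF2BP2 replicate 2 or 3, and for siIGF2BP2 against siIGF2BP3 it was 15 or 16 without siIGF2BP2 replicate 1, 2 or 3 or siIGF2BP3 replicate 2. For miR-21-5p counting error was at most 0.576% of the value in any library and, except in siIGF2BP1, smaller than the SD of its group.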
